A study of Mus musculus with 6 samples.

Results

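The 10 genes described here belong to the Ms4a cluster of mouse chromosome 19: Ms4a1, Ms4a2, Ms4a3, Ms4a4b, Ms4a4c, Ms4a6b, Ms4a6c, Ms4a6d, Ms4a7 and Ms4a8a. They were taken by symbol, and all 10 were found among the 28692 genes of the deposited tables. Transcripts were counted as unique molecular identifiers (UMIs) in single CD45+ cells that were sorted live (DAPI-negative) from C57BL/6 mice in a study of EAE; EAE, experimental autoimmune encephalomyelitis, is a mouse model of multiple sclerosis. The labels name brain as the tissue, and their dissociation step also names spinal cord. The groups were WT mice on days 0, 13 and 21 and miR-155KO mice (KO below), which lack the microRNA miR-155, on the same days, counted from the induction of EAE. The sources used here do not say what, if anything, the mice of day 0 had received. Each of these 6 groups was 1 droplet library, and the labels give 5 mice per group, so cells of several mice share a library and no animal can be followed. Genotype and library therefore cannot be told apart on any day, and the number prefix in the library titles changes with the day, so a batch that this prefix might stand for is confounded with day.

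Ms4a proteins are small membrane proteins that cross the membrane several times and sit in complexes with receptors of immune cells. Ms4a1 encodes CD20, the B cell antigen targeted by depleting antibodies in multiple sclerosis. Ms4a2 encodes the beta chain of the high-affinity IgE receptor of basophils and mast cells, Ms4a3 is a gene of granulocyte and monocyte progenitors, and Ms4a4b is a T cell gene whose product modulates activation. The Ms4a4, Ms4a6, Ms4a7 and Ms4a8a genes are best known from monocytes and macrophages, and the human region that holds their relatives is a genetic locus for levels of soluble TREM2, a microglial receptor.

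In the GENCODE M21 annotation of GRCm38, the members lie between chr19:11067471 (the start of Ms4a8a) and chr19:11640851 (the end of Ms4a3), a stretch of 573.4 kb. The annotation lists 19 Ms4a genes on this chromosome. Ms4a4c, Ms4a4b, Ms4a6c and Ms4a6b lie on the plus strand, and the other 6 members on the minus strand. Because the knockout removes miR-155, the sequences shown first are its guide strand from RefSeq (GRCm38.p6, chr16:84714143-84714165, plus strand) and 2 places in members' 3′ UTRs. These places hold a 7-base match of 1 of the 2 kinds described below, and shorter matches to the seed are not shown. Capitals mark the seed (bases 2 to 8) in the microRNA and the 7-base matches in the 3′ UTRs, which come from the GENCODE M21 transcripts. The last capital A of the Ms4a4b match lies outside the seed pairing.
mmu-miR-155-5p: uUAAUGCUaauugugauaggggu
Ms4a1 3′ UTR, bases 9 to 32: cttttctaAGCATTAttgtttaga
Ms4a4b 3′ UTR, bases 1023 to 1046: ctagatcctGCATTAAtttggcat
The Ms4a1 match is a 7-base pairing to seed bases 2 to 8, and the Ms4a4b match pairs with bases 2 to 7 and is followed by an A. The 3′ UTRs of the other 8 members hold neither 7-base match. Among 20659 genes with a 3′ UTR of 50 bases or more, 12.83% hold 1 of these matches and 8.43% the match to bases 2 to 8, so 2 of 10 members is close to that share. A match is a description of the letters and was not tested as a site.

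The libraries held 6321841 to 24243660 UMIs over 20030 barcodes, with a median of 3019 to 4368.5 UMIs per cell. After 23 barcodes with a high mitochondrial share were left out, 14727 of 20007 cells met a marker gate for 1 class, and 63.8% to 92.7% of a library's cells did so. No member is a gate marker. The transcript that hosts miR-155, Mir155hg, gave 45 UMIs in the WT library of day 13 and 59 in that of day 21, against 0 and 1 in the KO libraries. On day 0 it gave 2 UMIs in WT and 0 in KO, so the labels of that day are checked only by few counts. In all, 207 of 19823 distinct barcode sequences occurred in more than 1 library. With 1 library per group, p-values below measure the spread between these libraries, which may be technical.

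Most members were concentrated in a few classes, and the classes differed between members. Levels are CPM, the member's UMIs per 1000000 UMIs of the class, given as the median with the lowest and highest library over libraries with 20 or more cells of the class. Ms4a1 stood at 1402 CPM (1154 to 2226) in B cells, and 98.52% of its UMIs in gated cells came from them. Ms4a4b stood at 1644 CPM (1481 to 2410) in NK cells and 1458 CPM (1237 to 1948) in T cells, ranges that overlap, and its next class, monocytes, had 55.1 CPM. Ms4a4c, Ms4a6b, Ms4a6c, Ms4a6d, Ms4a7 and Ms4a8a had their highest median levels in monocytes and macrophages, among classes with enough cells. Ms4a6b was spread more widely, and its T cell level of 729 CPM (584 to 1053) overlapped those of both classes. Of its UMIs in gated cells, 31.83% were in T cells, 19.95% in monocytes, 19.63% in microglia and 15.63% in macrophages. Ms4a2 and Ms4a3 marked basophils and progenitors.

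**Figure D1:**
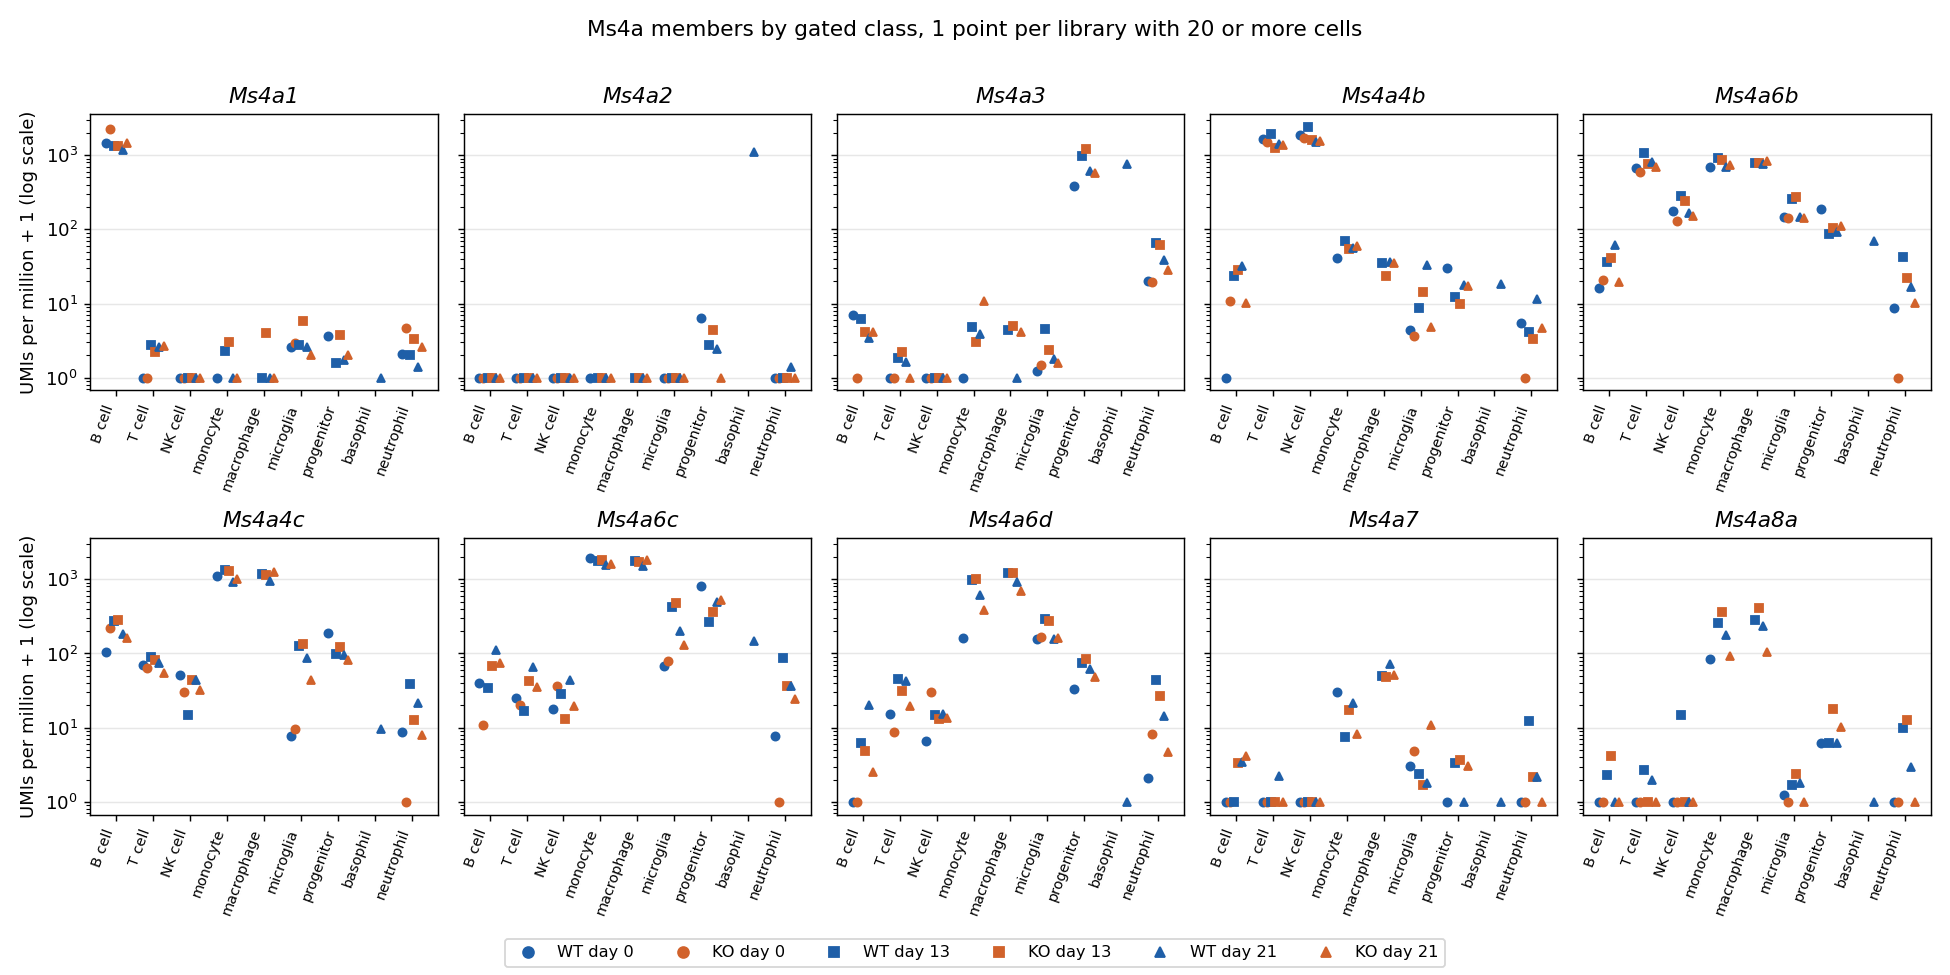
Level of each of the 10 members (y axis, CPM plus 1, log scale) in 9 gated classes (x axis), with 1 point per library of 20 or more cells, blue for WT and orange for KO, and the shape giving the day. Ms4a1 stands apart in B cells, Ms4a4b in T and NK cells, Ms4a3 in progenitors and basophils, and the 5 members Ms4a4c, Ms4a6c, Ms4a6d, Ms4a7 and Ms4a8a in monocytes and macrophages, while Ms4a6b is high in T cells as well.

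Ms4a1, the CD20 gene, was found in most B cells of each library. It stood at 1471, 1336 and 1154 CPM in the WT libraries of days 0, 13 and 21, and at 2226, 1317 and 1468 CPM in the KO libraries. The KO library of day 0 lay above the other 5. A UMI of Ms4a1 was found in 64.8% and 81.8% of WT and KO B cells on day 0 and in 88.8% to 93.6% of them in the other 4 libraries. T cells, which should lack the gene, had one in 0.425% of cells, at a median depth of 2217 to 3296 UMIs per cell against 1923 to 2512 in B cells.

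Within a day, the KO to WT ratio of Ms4a1 in B cells was 1.51 (95% interval 1.33 to 1.72) on day 0, 0.986 (0.911 to 1.07) on day 13 and 1.27 (1.14 to 1.42) on day 21. These intervals are exact conditional intervals for 1 library against 1 library and, like all intervals here, cover counting error only. Across the days, edgeR's quasi-likelihood test with Benjamini-Hochberg adjustment gave a log2 fold change of 0.28 (SE 0.14, adjusted p = 0.9996), and it called 0 of 5599 genes (0%) in B cells at this contrast, 0 of 5 members among them, with 238 genes at an unadjusted p under 0.05. B cells at different stages differed in Ms4a1. Mature B cells, with Ighd or Fcer2a and no precursor marker, held 1191 to 1408 CPM in the 6 libraries (500 cells). Precursor B cells, with 2 or more of Vpreb1, Vpreb3, Igll1, Rag1 and Dntt, held 67.8 CPM (4 UMIs in 19 cells), and 11 of those 19 came from the WT library of day 0. In mature B cells on day 0, Ms4a1 was 1191 CPM in WT (921 to 1516) and 1408 CPM in KO (1100 to 1777), intervals that overlap. These subsets hold only 500 and 19 of the 1424 gated B cells. The B cells in neither subset were not compared between genotypes, so the part of cell stage in the day 0 ratio was not tested.

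No partner of CD20 on the list was called in B cells. The list of B cell co-receptor partners (Cd22, Cd37, Cd53, Cd79a, Cd79b, Cd81 and Cr2) had all 7 genes tested in B cells and 0 called in any day contrast or between genotypes, with a median log2 fold change of 0.17 for KO against WT, beside a median of -0.01 over all genes. Ms4a4c was the other member with a sizeable level in B cells, where it rose from 103 CPM in WT and 216 CPM in KO on day 0 to 269 and 286 CPM on day 13, and stood at 182 and 158 CPM on day 21. The day 13 libraries lay above those of day 0. The log2 fold change of day 13 against day 0 was 1.27 (SE 0.27, edgeR adjusted p = 0.00431), with 14.6% of 5599 genes called in either direction and 2 of 5 members called. The second was Ms4a4b (log2 fold change 3.12, adjusted p = 0.0407), which rests on 2 UMIs in the day 0 B cells and 52 in those of day 13. The T cell panel of markers stood at 4.92 to 30.2 CPM in B cells on day 0 and 20.2 to 38.3 CPM on day 13, and its part in the Ms4a4b result was not tested. Both calls were lost when the WT library of day 0 or either library of day 13 was left out, with edgeR adjusted p of up to 0.255 for Ms4a4c and 0.518 for Ms4a4b.

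Ms4a2, which completes the IgE receptor with Fcer1a and Fcer1g, was a basophil transcript. Only the WT library of day 21 held 20 or more basophils, and there it stood at 1087 CPM, with a UMI in 82.1% of 28 cells. The other 5 libraries, with 2 to 10 basophils each, gave 1144 to 1707 CPM. T cells, B cells, monocytes, macrophages and microglia held 0 UMIs of Ms4a2 in all 6 libraries, and progenitors held 12 in 480 cells. Over gated cells, 95.64% of its 298 UMIs were in basophils, so the gene followed the gate set on Mcpt8, Cpa3, Fcer1a and 5 further markers. Basophils were too few for a comparison between genotypes or days.

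Ms4a3, a gene of the granulocyte and monocyte lineage before its cells mature, reached 961 and 1190 CPM in WT and KO progenitors on day 13, and 606 and 580 CPM on day 21. On day 0 the 28 WT progenitors held 378 CPM, and the KO library had 15 such cells. Both libraries of day 13 lay above those of the other days. The fall from day 13 to day 21 was -0.89 on the log2 scale (SE 0.14, edgeR adjusted p = 0.000818), where 5.74% of 7382 genes were called in either direction and 2 of 7 members. The other member was Ms4a6c, which was higher on day 21 (485 and 519 CPM against 262 and 363 CPM, log2 fold change 0.66, adjusted p = 0.00689), a call that DESeq2 did not make. The genotypes did not differ by this test (Ms4a3, log2 fold change 0.04, SE 0.14, adjusted p = 0.953; 0.718% of genes called, 0 of 7 members).

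Among progenitors, the 2 genes split by lineage markers. Progenitors with 2 or more neutrophil markers (440 cells) held 856 CPM of Ms4a3 and 387 CPM of Ms4a6c. Those with Ccr2 and monocyte markers (31 cells) held 190 CPM of Ms4a3 and 1116 CPM of Ms4a6c. The panel of 8 neutrophil markers, all present in each library, summed to 52070 and 25060 CPM in WT and KO progenitors of day 13 and to 44690 and 29500 CPM in those of day 21, and its part in the day difference was not tested. In neutrophils Ms4a3 fell to 18.3 to 64.2 CPM. Basophils of the WT library of day 21 held 759 CPM of it, with a UMI in 50% of cells.

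Ms4a4b and Ms4a6b were the members of T cells. Ms4a4b stood at 1625, 1948 and 1423 CPM in WT T cells of days 0, 13 and 21 and at 1492, 1237 and 1362 CPM in KO T cells. The WT library of day 13 was the highest of the 6 and the KO library of that day the lowest. Ms4a6b stood at 661, 1053 and 800 CPM in WT and at 584, 763 and 696 CPM in KO, again highest in WT on day 13. Both genes were lower in the KO library of each day. In NK cells, which have as much Ms4a4b as T cells, Ms4a6b stood lower, at 168 CPM (130 to 279), and the NK and T cell ranges did not overlap.

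On day 13 the KO to WT ratio in T cells was 0.635 (0.589 to 0.684) for Ms4a4b and 0.725 (0.657 to 0.799) for Ms4a6b. On days 0 and 21 the Ms4a4b ratio was 0.918 (0.808 to 1.04) and 0.957 (0.887 to 1.03), both with 1 inside the interval. On day 13, 5 members reached 10 CPM in WT or KO T cells, and 2 of them were 1.5-fold or more apart, Ms4a4b lower and Ms4a6c higher in KO, while 19.2% of 7345 genes were that far apart. Over the 3 days, edgeR's test did not call either gene: Ms4a4b had a log2 fold change of -0.25 (SE 0.11, adjusted p = 0.755) and Ms4a6b -0.25 (SE 0.11, adjusted p = 0.678). It called 0.456% of 6585 genes and 0 of 5 members, and no day contrast called Ms4a4b or Ms4a6b in T cells. The 1 of 5 members called there from day 0 to day 13 was Ms4a6d (log2 fold change 1.54, SE 0.46, adjusted p = 0.0346; 11.4% of genes), on 8 UMIs in the T cells of day 0 and 77 in those of day 13. That call was lost with DESeq2 and when either library of day 0 or the KO library of day 13 was left out, with adjusted p of up to 0.362.

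On day 13 the KO to WT ratio of Ms4a4b was lower in CD8 than in CD4 T cells, a difference that was not tested. CD8 T cells, with Cd8a or Cd8b1 and without Cd4 or Foxp3, held 2976 CPM in WT and 1479 CPM in KO on day 13, a ratio of 0.497 (0.431 to 0.572) over 89 and 51 cells. On day 0 the CD8 ratio was 0.754 (0.623 to 0.908), and on day 21 it was 0.744 (0.637 to 0.864), so KO was the lower library each time. CD4 T cells held 1841 CPM in WT and 1666 CPM in KO on day 13, a ratio of 0.905 (0.789 to 1.04), and on day 21 the ratio was 1.36 (1.15 to 1.60). Ms4a6b gave ratios of 0.538 (0.440 to 0.653) in CD8 and 0.914 (0.756 to 1.10) in CD4 T cells on day 13. Each side of these ratios is 1 library. Over 4 libraries, the 2 subsets were not told apart in Ms4a4b (CD8 against CD4, log2 fold change 0.52, SE 0.16, edgeR adjusted p = 0.0669), with 4.82% of 3924 genes called and 0 of 5 members. In Foxp3+ T cells Ms4a4b stood at 618 and 691 CPM in WT and KO on day 13 (12 and 17 cells) and at 844 and 818 CPM on day 21 (84 and 21 cells). In each of these 4 libraries that was below the CD4 T cells, which held 1151 and 1563 CPM on day 21, and below the CD8 T cells, which held 2083 and 1550 CPM. This order was not tested.

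The NK panel in T cells was highest in the WT library of day 13 and lowest in the KO library of that day, as Ms4a4b was, while the other 4 libraries stood in another order. The 8 markers of the NK panel (Ncr1, Klrb1c, Klre1, Klra8, Klra4, Prf1, Eomes and Gzma) summed to 161, 1032 and 484 CPM in WT T cells of days 0, 13 and 21 and to 166, 98.9 and 108 CPM in KO T cells. Between 5 and 7 of the 8 had a UMI in each library, and Ncr1, Klra8 and Klra4 were at 0 in both libraries of day 13. An NK marker was found in 26.7% of WT and 14.2% of KO T cells on day 13. T cells with no NK marker held 1596 CPM of Ms4a4b in WT and 1283 CPM in KO on that day, a ratio of 0.804 (0.736 to 0.878), and those with 1 or more held 2728 and 1053 CPM, a ratio of 0.386 (0.326 to 0.454). In CD8 T cells with no NK marker the ratio was 0.620 (0.507 to 0.758), over 35 WT and 41 KO cells. On day 21, T cells with no NK marker held 1224 CPM in WT and 1339 CPM in KO. Of the list of T cell partners (Cd4, Cd8a, Tbx21 and Tnfrsf18, which encodes GITR, a receptor with which the Ms4a4b protein associates), 1 of 4 was lower and 0 higher in KO T cells over the days, Cd8a by -0.97 (SE 0.17, edgeR adjusted p = 0.0131). Of 6585 genes, 13 were called lower and 17 higher at this contrast. Tnfrsf18 did not pass the test (log2 fold change 0.15, SE 0.13), and it rose from day 0 to day 13 by 1.40 on the log2 scale (adjusted p = 3.06e-05).

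**Figure D2:**
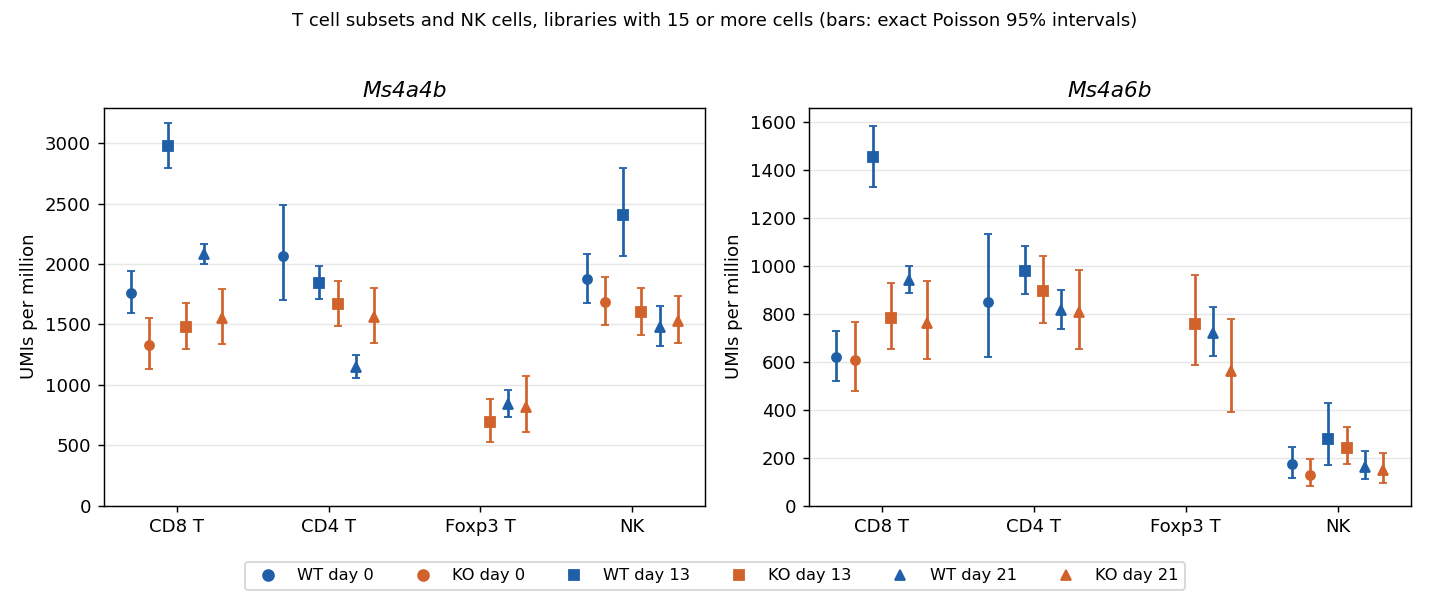
Ms4a4b and Ms4a6b (y axes, CPM) in CD8, CD4 and Foxp3 T cells and in NK cells, with 1 point per library of 15 or more cells and exact Poisson 95% intervals. In CD8 T cells the WT library of day 13 stands above all others for both genes, while Ms4a6b is low in NK cells in every library.

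The monocyte and macrophage members were shared by the 2 classes. Monocytes were cells with Ccr2 and the monocyte panel but at most 1 of 7 macrophage markers, and macrophages had 3 or more of them (Arg1, Gpnmb, C1qa, C1qb, C1qc and Mrc1 among them). Ms4a6c stood at 1767 CPM (1550 to 1930) in monocytes and 1718 CPM (1529 to 1813) in macrophages. Ms4a4c stood at 1113 CPM (927 to 1320) and 1158 CPM (944 to 1233), and Ms4a6b at 735 CPM (688 to 912) and 777 CPM (760 to 836). For each of these 3 genes the ranges of the 2 classes overlap.

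Ms4a7 and Ms4a6d were called higher in macrophages than in monocytes. The library ranges of Ms4a7 lay apart, at 47.5 to 71.35 CPM in macrophages and 6.46 to 29.7 CPM in monocytes. Those of Ms4a6d overlap, at 689 to 1208 CPM and 158 to 1008 CPM. In the same 4 libraries (days 13 and 21), Ms4a7 rose from monocytes to macrophages by 2.03 on the log2 scale (SE 0.24, edgeR adjusted p = 5.20e-07) and Ms4a6d by 0.50 (SE 0.08, adjusted p = 0.000110). Ms4a4b was lower in macrophages by -0.93 (SE 0.20, adjusted p = 0.00224). Those were 3 of 7 members tested, where 4.32% of 6904 genes were called in either direction. The macrophage gate is a cut on a graded scale. From cells with 0 of the 7 markers to cells with 4, Ms4a7 went from 12.1 to 73.3 CPM and Ms4a6d from 668 to 1078 CPM, while Ms4a6c went from 1653 to 1732 CPM. In the 66 cells with 5 markers Ms4a7 was back at 35.6 CPM, and in the 14 with 6 it was at 131 CPM, while Ms4a6d stood at 1110 and 1096 CPM. The 421 cells with 2 markers, left out of both classes, had 19.3 CPM of Ms4a7 and 867 CPM of Ms4a6d, next to 33.1 and 1091 CPM in the 263 cells just inside the macrophage gate. Cells with more markers also had more UMIs, with a median of 4296 at 0 markers and 6066 at 4. Without the library as block, neither Ms4a6d nor Ms4a4b was called (edgeR adjusted p of Ms4a6d 0.759), and the Ms4a4b call was also lost with DESeq2 and without the WT library of day 13. DESeq2 gave no adjusted p for Ms4a7.

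Set against microglia of the same libraries, macrophages were higher in all 7 members tested, where 24.2% of 8740 genes were called higher. The differences ran from 1.63 (Ms4a4b, adjusted p = 0.0119) to 8.74 (Ms4a8a, adjusted p = 1.73e-13) on the log2 scale, with Ms4a7 at 4.06, Ms4a4c at 3.82, Ms4a6c at 2.80, Ms4a6d at 2.38 and Ms4a6b at 2.18. Ms4a8a, which has been described on alternatively activated macrophages, gave 6 UMIs in 5971 microglia and 958 in 528 macrophages. The Ms4a4b call was lost without the library as block and without the WT library of day 13.

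Single cells carried several members at once. When each cell was thinned to 1500 UMIs, Ms4a4c, Ms4a6c, Ms4a6d and Ms4a8a were all found in 38.9% (30.7 to 47.5) of WT and 39.8% (32.9 to 47.0) of KO monocytes on day 13. On day 21 they were all found in 21.4% (17.6 to 25.6) of WT monocytes and in 15 of 75 KO monocytes (11.7% to 30.8%). In macrophages they were 40.1% and 37.3% on day 13 and 30.6% and 27.5% on day 21. At most 1.66% of the microglia of any library had all 4. The genotypes lay within each other's intervals in both classes on both days.

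The levels of Ms4a6d and Ms4a8a varied between libraries in monocytes and macrophages. In WT monocytes of days 0, 13 and 21, Ms4a6d stood at 158, 962 and 605 CPM, and in KO monocytes of days 13 and 21 at 1008 and 386 CPM. Both libraries of day 13 lay above both of day 21. The log2 fold change of day 21 against day 13 in monocytes was -1.03 (SE 0.20), which did not pass the test (edgeR adjusted p = 0.0718; 1% of 6300 genes called, 0 of 7 members). In macrophages Ms4a6d stood at 1208 and 1203 CPM on day 13 and at 928 and 689 CPM on day 21 in WT and KO (log2 fold change -0.60, SE 0.17, adjusted p = 0.198; 0.799% of 5633 genes called, 0 of 7 members).

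The KO to WT ratios of these 2 genes were lower on day 21 than on day 13, a difference between days that was not tested. On day 13, Ms4a8a stood at 257 CPM in WT and 363 CPM in KO monocytes, a ratio of 1.41 (1.18 to 1.69), and at 283 and 408 CPM in macrophages, a ratio of 1.44 (1.26 to 1.66). On day 21 it stood at 177 and 92.8 CPM in monocytes, a ratio of 0.525 (0.365 to 0.737), and at 231 and 103 CPM in macrophages, a ratio of 0.448 (0.290 to 0.678). KO was thus the higher library on day 13 and the lower one on day 21 in both classes. For Ms4a6d the ratio was 1.05 (0.951 to 1.15) in monocytes and 0.996 (0.925 to 1.07) in macrophages on day 13, and 0.638 (0.536 to 0.755) and 0.743 (0.624 to 0.883) on day 21. Ms4a4c and Ms4a6c kept ratios between 0.973 and 1.08 in monocytes on both days and in macrophages on day 13, and were 1.31 (1.13 to 1.51) and 1.19 (1.05 to 1.33) in macrophages on day 21. Ms4a6b lay between 0.954 and 1.10 throughout.

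Other genes of these cells differed as much on day 21. In monocytes 1 of 7 members was 1.5-fold or more apart on day 13, where 20.5% of 6838 genes were, and 3 of 7 on day 21, where 30.6% of 6825 genes were. Ms4a7 is in both counts, and it reached 10 CPM in only 1 of the 2 libraries on each day. In macrophages it was 0 of 7 (14.5% of 6657 genes) and 1 of 7 (40.1% of 7071 genes). The macrophage panel itself stood at 5250 CPM in the 85 WT and 2708 CPM in the 51 KO macrophages of day 21, with all 7 markers present in both, against 5606 and 5341 CPM on day 13. Its part in the lower Ms4a6d and Ms4a8a was not tested. Over both days the genotypes were not told apart by edgeR: 0 of 6300 genes (0%) were called in monocytes (179 at an unadjusted p under 0.05) and 0 of 5633 (0%) in macrophages (136), and the members' log2 fold changes ran from -0.26 to 0.06 and from -0.38 to 0.19.

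**Figure D3:**
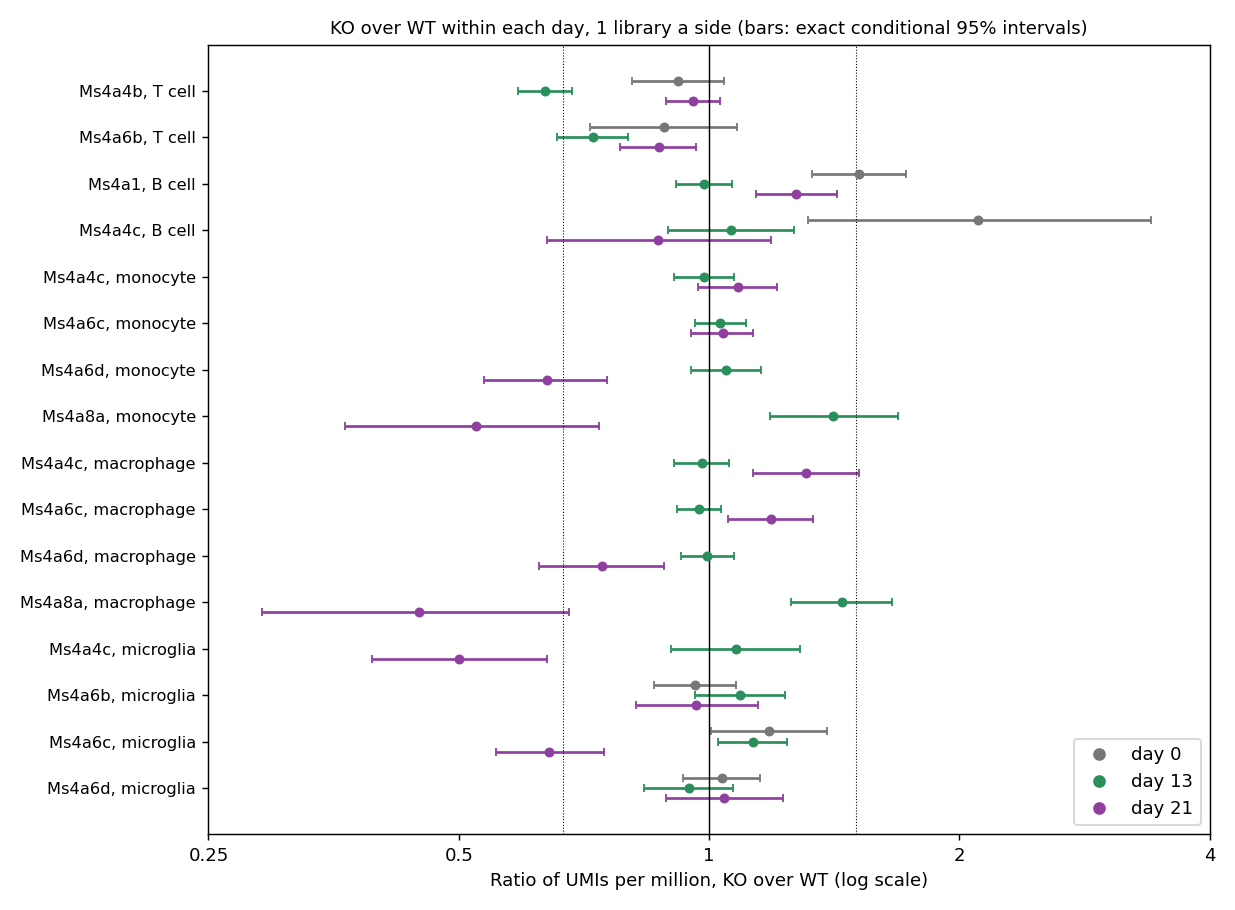
Ratio of KO to WT level (x axis, log scale) within each day for 16 pairs of a member and a class, with exact conditional 95% intervals. The dotted lines mark 1.5-fold in either direction. Ms4a8a in monocytes and macrophages lies above 1 on day 13 and below 1 on day 21, and the T cell members lie lowest on day 13.

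Microglia, which are brain-resident macrophages, had higher levels of 4 members on day 13 than on day 0. The number prefix of the library titles also changes between these days, and the part of disease in this difference was not tested. From day 0 to day 13, Ms4a4c went from 6.70 and 8.67 CPM in WT and KO to 125 and 135 CPM, and Ms4a6c from 65.9 and 77.8 CPM to 423 and 478 CPM. Ms4a6b went from 147 and 141 CPM to 251 and 274 CPM, and Ms4a6d from 158 and 164 CPM to 290 and 274 CPM. For all 4 genes both libraries of day 13 lay above both of day 0. The log2 fold changes were 4.30 for Ms4a4c (SE 0.36, edgeR adjusted p = 0.000358), 2.88 for Ms4a6c (SE 0.23, adjusted p = 1.80e-05), 1.10 for Ms4a6b (SE 0.14, adjusted p = 0.000131) and 1.05 for Ms4a6d (SE 0.14, adjusted p = 0.000155). They were 4 of 6 members tested, all higher, where 16.4% of 10387 genes were called higher.

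On day 21 all 4 of these members stood below both libraries of day 13, and edgeR called 3 of them lower, Ms4a4c not among them. Ms4a4c stood at 85.5 CPM in WT and 42.7 CPM in KO, and Ms4a6c at 202 and 130 CPM, both still above day 0 (log2 fold changes 3.19, adjusted p = 0.00399, and 1.43, adjusted p = 0.00272; 2 of 6 members higher, 8.08% of genes). Ms4a6b, at 145 and 140 CPM, and Ms4a6d, at 155 and 161 CPM, were at their day 0 levels. Against day 13, Ms4a6c fell by 1.45, Ms4a6b by 0.87 and Ms4a6d by 0.82 on the log2 scale (edgeR adjusted p = 0.0187, 0.0187 and 0.0206). These 3 of 6 members stand beside 0.789% of genes called lower. The Ms4a6d call was lost without the KO library of day 0, which left it at an adjusted p of 0.0508.

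**Figure D4:**
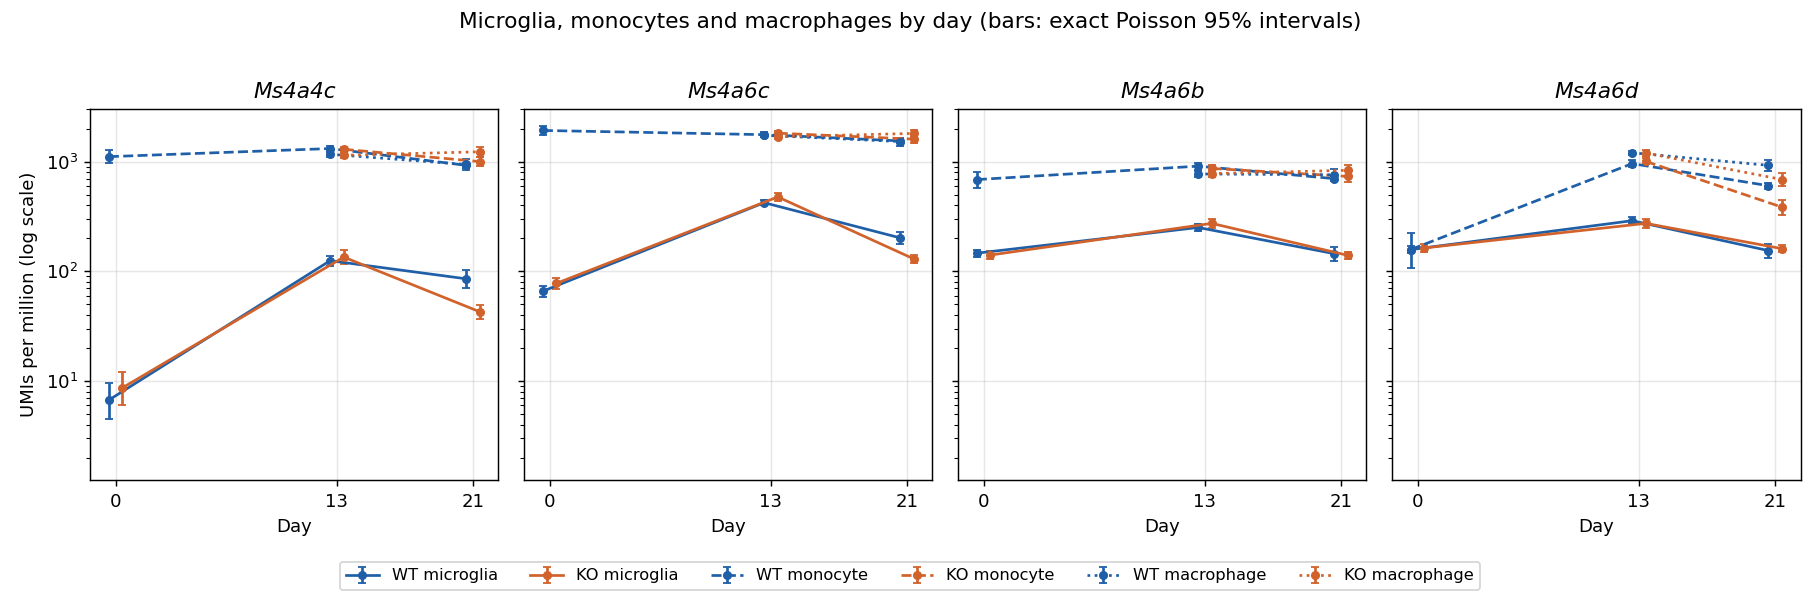
Ms4a4c, Ms4a6c, Ms4a6b and Ms4a6d (y axis, CPM, log scale) by day (x axis) in microglia (solid lines), monocytes (dashed) and macrophages (dotted), for classes with 20 or more cells, with exact Poisson 95% intervals. In microglia all 4 genes peak on day 13 in both genotypes, and they stay below monocytes and macrophages on every day apart from Ms4a6d, where WT monocytes of day 0 are level with microglia.

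Markers of monocytes rose in the same microglia. The 8 markers of the monocyte panel (Ly6c2, Ccr2, Plac8, Vcan, Chil3, F13a1 and Hp among them) summed to 67.5 and 84.3 CPM in WT and KO microglia on day 0, 396 and 589 CPM on day 13, and 456 and 184 CPM on day 21. Between 6 and 8 of them had a UMI in each library, and Vcan was at 0 in 3 of the 6. At least 1 was found in 18.6% and 14.7% of cells on day 0, 62.5% and 61.8% on day 13, and 43.7% and 27.4% on day 21. In microglia with no monocyte and no T cell marker, Ms4a4c stood at 6.76 and 7.54 CPM on day 0 and at 116 and 117 CPM on day 13. Ms4a6c stood in those cells at 64.3 and 75.4 CPM on day 0 and at 446 and 357 CPM on day 13. The day 13 levels of Ms4a6b (263 and 265 CPM) and Ms4a6d (279 and 231 CPM) in them were likewise above day 0. The KO level of Ms4a6c on day 13 was lower in these cells than in all microglia (357 against 478 CPM), and the WT level was not (446 against 423 CPM).

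Between genotypes, microglia differed in members on day 21. The KO to WT ratio on that day was 0.500 (0.394 to 0.638) for Ms4a4c and 0.643 (0.554 to 0.747) for Ms4a6c, while Ms4a6b (0.965, 0.818 to 1.15) and Ms4a6d (1.04, 0.888 to 1.23) did not differ beyond counting error. Ms4a4b was also lower, at 31.8 CPM in WT and 3.85 CPM in KO. Of genes with 10 CPM or more in either library, 5.58% of 7526 were 1.5-fold or more lower in KO. Ms4a4b reached 10 CPM in WT alone, so no count of members is set beside this share. In microglia with no monocyte or T cell marker, the day 21 ratios were 0.772 (0.475 to 1.32) for Ms4a4c and 0.843 (0.648 to 1.11) for Ms4a6c, and both intervals include 1. The T cell panel stood at 128 CPM in WT and 18.0 CPM in KO microglia of that day, with all 8 markers present in both, and in the microglia with no monocyte or T cell marker Ms4a4b stood at 12.5 CPM (4.57 to 27.1) in WT and 1.85 CPM (0.679 to 4.02) in KO, on 6 UMIs each. On day 0, 0 of 3 members were that far apart (2.37% of 7794 genes), and on day 13, 1 of 5 (8.9% of 7495 genes), Ms4a4b, which reached 10 CPM in KO alone. Over all days, edgeR called 0.0385% of 10387 genes between genotypes and 0 of 6 members, with log2 fold changes of -0.30 (SE 0.28) for Ms4a4c and -0.10 (SE 0.18) for Ms4a6c.

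Ms4a7, a marker of border-associated macrophages in mouse brain, was nearly absent from microglia. WT microglia held 9, 4 and 1 UMIs of it on the 3 days, and KO microglia 16, 1 and 49. The 49 UMIs of the KO library of day 21 lay in 14 of 1640 cells, and 37 of them in 5 cells. A border macrophage marker was found in 42.9% of those 14 cells and in 9.72% of the other microglia of that library. The 19 cells that met the border macrophage gate held 111 UMIs of Ms4a7, or 822 CPM. Of all 1713 UMIs of Ms4a7, 71.2% lay in cells that met no gate, and 42.2% in ungated cells with 4 or more monocyte markers. For the other members, 16.5% to 52.7% of UMIs lay outside the gates.

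Neutrophils, which hold little of the monocytic members, gave the single genotype call on a member. Ms4a4c stood there at 7.76, 38.1 and 20.8 CPM in WT on days 0, 13 and 21 and at 0, 11.6 and 6.95 CPM in KO. It was lower in KO beyond counting error on day 13 (ratio 0.306, 0.141 to 0.595) and day 21 (0.335, 0.167 to 0.623). On day 0, 0 UMIs in 68 KO cells against 7 in 231 WT cells gave an interval of 0 to 2.29, which includes 1. Over the days the log2 fold change was -1.49 (SE 0.33, edgeR adjusted p = 0.0158), with 1.06% of 5938 genes called in either direction and 1 of 6 members. The call was lost in 7 of 12 alternatives, among them DESeq2, the fit without day in the model and a stricter gate, where the adjusted p over all of them ran from 0.00251 up to 1. On day 13 against day 0, 6 of 6 members tested were called higher in neutrophils, where 9.97% of genes were. Among them were Ms4a6d (log2 fold change 3.65, SE 0.63, edgeR adjusted p = 2.24e-05), Ms4a6c (3.58, SE 0.45, adjusted p = 2.29e-08) and Ms4a3 (1.57, SE 0.32, adjusted p = 0.000207). Day 0 counts in WT and KO were 17 and 5 UMIs for Ms4a3, but 1 and 2 for Ms4a6d and 6 and 0 for Ms4a6c. They were 7 and 0 for both Ms4a4c and Ms4a6b, and 0 and 0 for Ms4a8a. Members other than Ms4a3 could thus pass the filter on low counts only through later libraries. Their number is therefore no support beside the share of all genes. Without the WT library of day 0 the edgeR adjusted p was 0.443 for Ms4a6d and 0.0930 for Ms4a3, and of these 3 calls only that of Ms4a6c remained. The Ms4a4c and Ms4a8a calls of this contrast were lost without that library or the WT library of day 13, that of Ms4a8a also without any of 3 further libraries. The monocyte panel stood at 9563 and 8243 CPM in WT and KO neutrophils on day 0, 20960 and 19160 CPM on day 13 and 14260 and 8593 CPM on day 21, with 6 or 7 of 8 markers present and Ccr2, absent by the gate, at 0. Its part in these results was not tested.

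In plasmacytoid dendritic cells of day 13, the 3 members with 10 CPM or more in both libraries, Ms4a4c, Ms4a6b and Ms4a6c, were higher in KO beyond counting error. Another 4 reached 10 CPM in KO alone. Of all genes with 10 CPM or more in either library, 13.0% of 7337 were 1.5-fold or more higher in KO. Ms4a6d gave 44 UMIs in 164 KO cells and 1 in 90 WT cells, a ratio of 25.7 (95% interval 4.39 to 1039), and the 44 UMIs lay in 10 of the KO cells. Ms4a4c stood at 97.5 and 47.6 CPM in KO and WT (ratio 2.05, 1.23 to 3.55) and Ms4a6c at 273 and 150 CPM (ratio 1.82, 1.36 to 2.46). The ratio of Ms4a6b was 3.19 (1.55 to 7.38), with 49 UMIs in 16 KO cells and 9 in 5 WT cells, and the intervals of the other 3, Ms4a4b, Ms4a7 and Ms4a8a, included 1. The monocyte panel stood at 10330 CPM in KO and 11050 CPM in WT, with 8 and 6 of 8 markers present (Vcan and F13a1 at 0 in WT), and the macrophage panel at 377 and 238 CPM, with 7 and 5 of 7 present (Gpnmb and Mrc1 at 0 in WT). Their part was not tested. Over days 13 and 21 edgeR called 0 of 3808 genes between genotypes in this class and 0 of 2 members tested, with 122 genes at an unadjusted p under 0.05.

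Interferon-response genes were higher on day 13 than on day 0 in microglia, B cells and neutrophils. Ms4a4c was called higher in these 3 classes too, and a link between them was not tested. The same contrast was run in T cells, where Ms4a4c was tested and not called. It was also run in NK cells, where Ms4a4c had 1 to 9 UMIs per library and was not among the 2 members tested. Interferon-response genes are not given here for those classes. Of a list of 13 (Irf7, Isg15, Oasl2, Usp18 and others), 11 were higher and 0 lower in microglia on day 13 against day 0, where 16.4% of 10387 genes were higher. The list had a median log2 fold change of 4.54 beside -0.03 over all genes. Oasl2, an antiviral enzyme relative, rose by 5.36 (SE 0.25, edgeR adjusted p = 4.03e-07) and Irf7, a transcription factor of the response, by 5.00 (SE 0.27, adjusted p = 3.68e-06). On day 21 against day 0, 10 of 13 were higher in microglia, where 8.08% of genes were. Against day 13, 3 were lower (Irf7, Irgm1 and Oasl2), where 0.789% of genes were. In B cells 8 of 9 tested were higher on day 13, with a median of 2.40, where 8.36% of 5599 genes were higher. In neutrophils 11 of 12 tested were higher, with a median of 3.56, beside the 9.97% of genes given above. Between genotypes 3 of 12 were lower in KO neutrophils (Ifit1, Iigp1 and Isg15, median -0.65), where 39 of 5938 genes were lower. In T cells, B cells, monocytes, macrophages and microglia 0 of the list were called, with a median of -0.68 in microglia.

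Of the genes of the TREM2 axis (Trem2, Tyrobp, Apoe, Adam10 and Adam17), 1 of 5 was higher in microglia on day 13 than on day 0, beside 16.4% of all genes, namely Apoe, a lipid carrier, by 3.63 on the log2 scale (SE 0.34, edgeR adjusted p = 0.000439). Trem2 had a log2 fold change of -0.39 (SE 0.16, adjusted p = 0.0859). Trem2 was lower in macrophages than in microglia by -3.06 (SE 0.25, adjusted p = 2.39e-05), opposite to the members, while Tyrobp was higher (0.49) and Adam10 lower (-0.68). Tmem176a and Tmem176b, relatives of the family on another chromosome, were also higher in microglia: they were lower in macrophages by -0.83 and -0.78, and from day 0 to day 13 they fell in microglia by 0.68 and 0.73 (adjusted p = 0.0405 and 0.0375). Of the other Ms4a genes, Ms4a4a gave 180 UMIs in all, with 42 in macrophages, 39 in monocytes and 0 in 5971 microglia. Ms4a4d gave 38 UMIs, 17 of them in T cells, Ms4a14 gave 5, Ms4a10 and Ms4a15 gave 2 each, and Ms4a5, Ms4a12, Ms4a13 and Ms4a18 gave 0.

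In the RefSeq promoter table (GRCm38.p6; 250 bases before to 50 after the start), 8 of the 10 members had an entry; Ms4a1 and Ms4a6d did not. On both strands, none of the 8 held the gamma-activated site TTCNNNGAA, the PU.1 sequence GAGGAAGT or the interferon-stimulated response element (GAAA, any 2 bases, GAAA). The 3 motifs were searched separately, and 8.3%, 3.2% and 3.44% of 32841 promoters hold them. Reads from stretches that members share may be lost or given to the wrong member, which was not tested. The last 300 bases were taken from the transcript with the longest 3′ UTR. In them, 49.8% of the 20-base words of Ms4a4c also occur in Ms4a4b and 22.1% of those of Ms4a6c in Ms4a6b. Part of the levels of these genes is therefore uncertain, the low levels of Ms4a4c and Ms4a6c in T cells included. For the other 8 members the share was 0 in those 300 bases, and Ms4a4b and Ms4a6b hold the shared words outside them.

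Across the 55 sums of a class and library with 20 or more cells, in 12 classes, the genes most like each member by Pearson's r of log2(CPM + 1) were taken among 9858 genes outside the family and the gate panels. The sums share libraries, and these values are a description. Ms4a1 went with Pou2af1 (r = 0.963), a B cell coactivator, Ms4a4b with Cd96 (0.900) and Il2rb (0.894), receptors of T and NK cells, and Ms4a8a with Sirpb1c (0.911) and Dpep2 (0.892). Ms4a7 went with Msr1 (0.855), a scavenger receptor, Ms4a6c with Shtn1 (0.881), Ms4a6d with Guca1a (0.864) and Clec4a3 (0.860), and Ms4a4c with Cd40 (0.823) and Pyhin1 (0.822). Ms4a6b, spread over lymphoid and myeloid cells, went with S100a4 (0.828), Ms4a2 with Gm11697 (0.955) and Ms4a3 with Far2 (0.890). Among member pairs, Ms4a7 and Ms4a8a (0.795), Ms4a4c and Ms4a6c (0.791) and Ms4a6c and Ms4a8a (0.761) were closest, and the adjacent Ms4a4b and Ms4a6c had r = -0.198.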

How the data were processed

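The authors deposited a matrix of raw UMI counts per gene and barcode for each of the 6 libraries; per the submitters' processing notes these come from Cell Ranger 2.0.2 on mm10. Nothing was normalized in them. The members and the gene lists were chosen with earlier results of these data known, and the marker thresholds of the gates were set after seeing the data. A few list and panel genes are not reported here; the list counts leave them out, while the gates and panel sums hold them. All 10 members, all other Ms4a genes, Tmem176a, Tmem176b and the 3 genes most like each member were named.

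Cells with at most 10% mitochondrial UMIs were kept. T, B, NK, basophil and progenitor gates asked for 3 or more of 8 markers, microglia, neutrophil and monocytic gates for 4 or more, and at most 2 of another lineage. No doublet caller was run; leaving out the top 5% of barcodes by UMIs was an alternative. UMIs were summed per class and library. Single-library counts have exact Poisson, shares exact Clopper-Pearson and ratios exact conditional 95% intervals, and a ratio was formed for classes with 50 or more cells in both libraries. With 1 library a side there is no test within a day. Sums of 20 or more cells were tested across libraries with edgeR 4.0.16 (quasi-likelihood, TMM, filterByExpr, Benjamini-Hochberg at 0.05): genotype with day as block, day with genotype as covariate, and class with library as block. DESeq2 1.42.0 was an alternative. Standard errors are the log2 fold change over the root of F. On simulated counts, with 4.14%, 3.75% and 8.45% of calls false in the 3 classes that follow, the genotype test recovered 77.1% of 2-fold changes in microglia (10161 genes), 64.6% in T cells (6304 genes) and 46.9% in macrophages (5403 genes).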

Additional observations from a re-analysis of the deposited data

Results flagged for a closer look

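In 4 pairs of a member and a class, the KO to WT ratio lay above 1 on one day and below 1 on another, with intervals for counting error that both leave out 1. The difference between days was not tested in any of them, since each ratio sets 1 library against 1 library.

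Ms4a8a had a ratio of 1.411 on day 13 and 0.5249 on day 21 in monocytes, and of 1.443 and 0.4482 in macrophages. The 2 classes come from the same 4 libraries, so they are not independent.

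Ms4a6c in microglia had ratios of 1.181 on day 0, 1.128 on day 13 and 0.6427 on day 21. The monocyte panel in these microglia had KO and WT levels of 84.3 and 67.5 CPM, 589 and 396 CPM, and 184 and 456 CPM on the 3 days, and so lay on the same side.

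Ms4a6c in T cells had a ratio of 2.669 on day 13, from 34 UMIs in KO and 18 in WT, and of 0.5374 on day 21, from 20 and 202 UMIs. The monocyte panel in T cells stood at 1313 and 1720 CPM in KO and WT on day 13 and at 975 and 1582 CPM on day 21. Its part in these ratios was not tested.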

How the results depend on the processing

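Of the 39 calls on members across the tests, 19 held under all alternatives that gave an adjusted p and 20 were lost in 1 or more. Genotype calls on members numbered 1 (Ms4a4c in neutrophils), 2 with no filter on low counts, and 0 with DESeq2, with no replicate block (day not in the model) and with a stricter gate; leaving out 1 library gave 0 to 1. The number of day calls on members was 28, and 18 with DESeq2, which gave no adjusted p for 5 of the 28, with 21 to 39 when 1 library was left out and 42 with no filter on low counts. Class contrasts called 10, with 7 under no replicate block, and 8 to 11 when 1 library was left out. Members whose highest class stayed the same numbered 5 of 10 when classes came from clusters, which hold no macrophage class. Ms4a6c on day 21 against day 13 in neutrophils reversed to 0.34 with the stricter gate, and without either library of day 21 the genotype difference in microglia reversed to 0.16 for Ms4a4c and 0.19 for Ms4a6c, neither called, against lowest values of -0.66 and -0.26 when another library was left out; the causes were not tested. The Ms4a4b ratio in T cells on day 13 was 0.668 without the top 5% of barcodes and 0.804 in T cells with no NK marker, an alternative chosen after seeing the data. Depth limits Ms4a2, Ms4a7 and all members in basophils, where few cells give few UMIs.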
